A study of Mus musculus with 24 samples.

Results

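The data describe 9 genes used as markers of tissue-resident and alternatively activated macrophages in the left gastrocnemius muscle of mice. They are Mrc1, Cd163, Lyve1, Folr2, Timd4, Retnla, Chil3, Cbr2 and F13a1. They were chosen by name from the 54532 genes counted, and all 9 were found under 1 identifier each. Resident macrophages sit in the connective tissue between muscle fibres, renew partly from local cells, and take up debris through scavenger and lectin receptors. Alternative activation is the state that interleukin-4 and interleukin-13 induce through their shared receptor chain and the transcription factor STAT6, and its mouse markers include the resistin-like molecule Retnla and the chitinase-like protein Chil3. Monocytes that enter injured muscle from the blood also become macrophages, so several of these genes can be read from more than 1 kind of cell.

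RNA sequencing covered 24 wild-type C57/BL6 mice, 4 of each sex in each of 3 conditions, sampled at the labelled time of 24 h. Control mice were sedentary and received 2 saline injections (20 µl, pH 7.2) in that muscle, separated by 5 days. Mice of the sedentary pain group received the same number of injections at pH 5.0, and the muscle was stimulated to contract for 6 min before the last one. The active pain group had running wheels for 8 weeks and then the same procedure. No stimulated contraction is described for controls and there was no running group without pain. Acid, contraction and, for the active group, running therefore cannot be told apart in the comparisons with control. Ages are not given.

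The libraries held 17612139 to 34039699 counts each. Summed CPM (counts scaled to a common library size with trimmed-mean factors) of 7 myofibre markers were 78698 to 184685 in every library, as the tissue label implies. The summed CPM of 14 general macrophage markers (among them Adgre1, Csf1r, Cd68 and C1qa) was 106.9 to 240.5 in female controls and 71.4 to 161.4 in male controls, and none of the 14 was at 0 in a whole group. Libraries of 2 kinds stood apart and touch the results. Female sedentary pain replicates 3 and 4 had macrophage sums of 4502 and 6705, against 512 and 915 in replicates 1 and 2. Within their groups, female sedentary pain replicate 2, female active pain replicate 3, male sedentary pain replicate 1 and male active pain replicate 2 had the highest sums of 10 neutrophil markers, at 283, 122, 327 and 91.8 CPM, while the controls of both sexes lay between 3.07 and 14.7 CPM. In bulk muscle RNA, more cells of a type and more RNA per cell cannot be told apart.

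Promoter sequences were held for 8 of the 9 genes in RefSeq (GRCm38.p6). Lyve1 is named only. A window from 250 bases before to 50 bases after the start site was searched for letters bound by factors with known roles in macrophages. The STAT6 motif (TTC and GAA with 4 bases between them) was present in 6.95% of 32851 promoters, and the GAS motif of other STAT factors (the same letters with 3 bases between them) in 8.30%. GAGGAA, the core of PU.1, was present in 28.3% and the C/EBP motif (TTGC and AA with 2 bases between them) in 10.8%. All were searched on both strands, and matches could overlap. The first 150 bases of 3 of these windows, starting 250 bases before the start site and written in the direction of transcription, are shown because they hold these letters in genes whose levels are described below as unlike each other, the receptor Mrc1 and the secreted products Chil3 and Retnla. Capitals mark TTCCTC in Mrc1, which is the PU.1 core read on the other strand, the GAS match TTCTTAGAA in Chil3, and in Retnla TTCCTC, the STAT6 match TTCACAAGAA and the C/EBP match TTGCTAAA.
Mrc1, chr2:14229164-14229313, plus strand: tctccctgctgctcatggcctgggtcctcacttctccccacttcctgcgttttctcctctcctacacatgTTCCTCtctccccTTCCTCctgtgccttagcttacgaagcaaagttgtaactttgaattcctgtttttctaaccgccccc
Chil3, chr3:106167665-106167814, minus strand: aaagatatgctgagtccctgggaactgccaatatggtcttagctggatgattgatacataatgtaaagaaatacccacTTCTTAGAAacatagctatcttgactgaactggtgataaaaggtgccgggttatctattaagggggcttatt
Retnla, chr16:48842359-48842508, plus strand: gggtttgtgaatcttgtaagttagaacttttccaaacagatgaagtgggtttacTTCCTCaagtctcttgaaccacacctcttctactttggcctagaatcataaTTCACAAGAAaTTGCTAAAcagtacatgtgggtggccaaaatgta
Counted from the start site, the STAT6 match of Retnla began at -145 and the C/EBP match at -134. In the Cbr2 window a STAT6 match, TTCGGAAGAA, began 25 bases after the start site. Only Retnla and Cbr2 held the STAT6 letters among the 8 genes, and 4 of the 8 held GAGGAA. A match of letters describes the sequence and does not show that a factor binds there.

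Levels were compared between genes per kilobase of exon. In female controls Retnla was highest at 61.4 ± 38.0 CPM per kb (SD, n = 4), followed by Cbr2 at 13.6 ± 2.57, Folr2 at 3.71 ± 1.69, F13a1 at 2.15 ± 0.763, Mrc1 at 1.91 ± 0.490, Lyve1 at 1.75 ± 0.233 and Cd163 at 1.34 ± 0.650 CPM per kb. Timd4 followed at 0.517 ± 0.135, and Chil3 was last at 0.0891 ± 0.0523 CPM per kb. From Folr2 to Cd163 each gene differed from the next by less than the larger of their SDs. In male controls Cbr2 stood first at 43.1 ± 5.16 CPM per kb and Retnla second at 27.8 ± 12.2 CPM per kb. Retnla and Cbr2 held the first places in all 6 groups.

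In females, sedentary pain was accompanied by higher levels of 6 of the 9 genes and by a lower level of none, in edgeR's quasi-likelihood test with Benjamini-Hochberg adjustment over all 14511 genes tested. The background was wide: 33.5% of all genes tested were called in this comparison, made up of 19.6% higher and 13.9% lower. The median log2 fold change of the 9 genes was 1.46, against -0.022 over all genes. P-values measure only the spread between these samples, since the labels do not state how replicates were raised or handled. In edgeR 0 of 9 members passed in active females, and 0 of 9 passed in either pain group of males. The background was 0% of genes in each of these comparisons, and unadjusted and DESeq2 counts are given with the non-overlapping groups. Markers of other myeloid cells and states also rose in female sedentary pain. Calls were 6 of 6 monocyte markers (median log2 fold change 4.89), 6 of 7 tested neutrophil markers (5.03), 12 of 12 tested genes of classical activation (4.44) and 3 of 5 tested dendritic markers (3.55), all higher. Their part in the values of the members was not tested. The comparisons of the pain groups with control share the control mice of each sex.

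**Figure D1:**
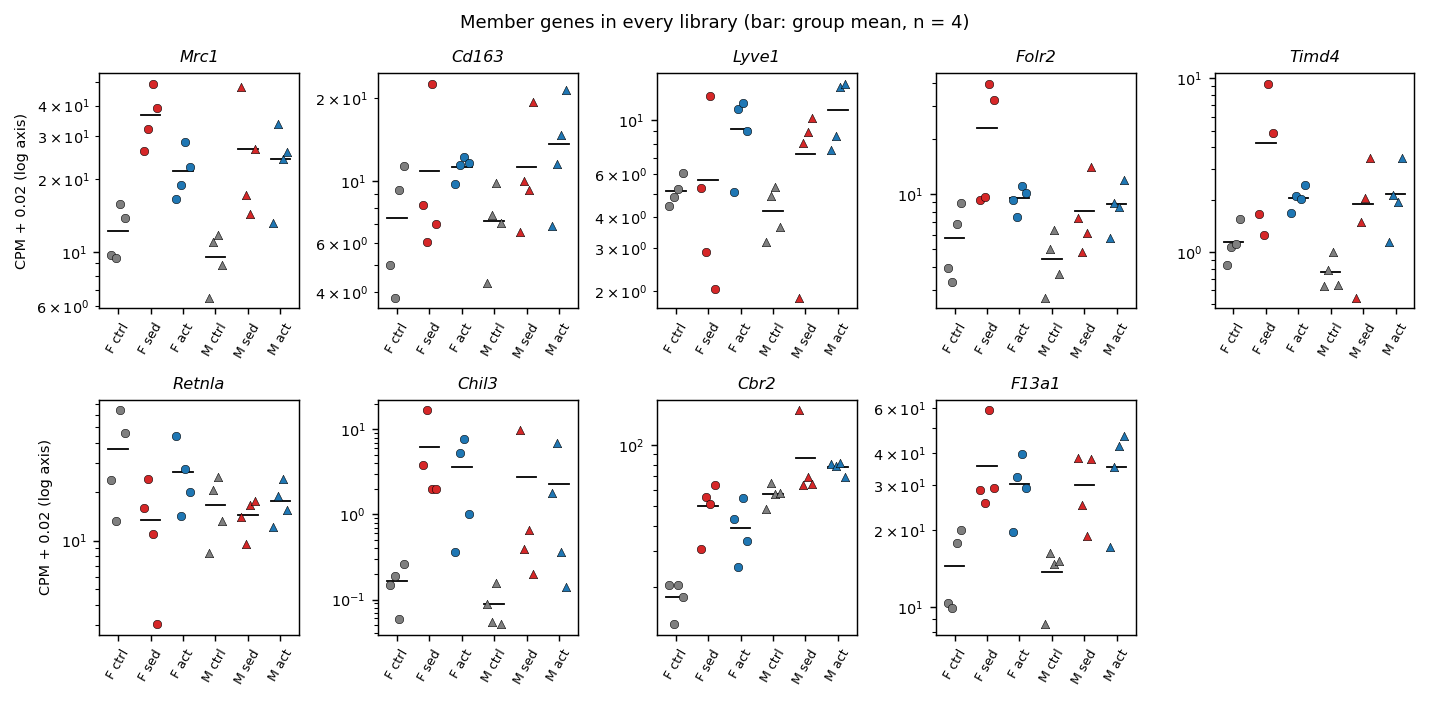
Level of each of the 9 genes in every library, as CPM + 0.02 on a log axis, for female (F, circles) and male (M, triangles) control (ctrl), sedentary pain (sed) and active pain (act) groups; bars are group means (n = 4). Mrc1 in all 4 female sedentary pain libraries (25.9 to 49.1 CPM) lies above all female controls (9.46 to 15.8 CPM), while Chil3 in male sedentary pain runs from 0.182 to 9.85 CPM.

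The receptors came first. Mrc1 encodes the mannose receptor CD206, which takes up glycoproteins and is the most widely used surface marker of alternatively activated and resident macrophages. Its level in female controls was 9.70, 9.46, 15.8 and 13.8 CPM, and in female sedentary pain 25.9, 31.9, 49.1 and 39.0 CPM. Every sedentary pain library was above every control. The log2 fold change was 1.56 ± 0.25 (SE, n = 4 per group, edgeR adjusted p = 0.0026). Active females had 16.5, 18.9, 28.4 and 22.5 CPM, again all above controls, at a log2 fold change of 0.82 ± 0.24 (edgeR adjusted p = 0.565). In males Mrc1 was 6.48, 10.97, 11.7 and 8.80 CPM in controls. With sedentary pain it was 47.7, 17.1, 14.4 and 26.5 CPM, and with active pain 13.2, 33.6, 24.1 and 25.7 CPM. No male pain library overlapped the male controls. The male log2 fold changes of 1.49 ± 0.39 and 1.35 ± 0.39 were near the size of the female one, and neither passed (edgeR adjusted p = 0.296 and 0.478). The counts of Mrc1 can include those of the microRNA gene Mir511, which lies within it on the same strand.

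Folr2, the folate receptor beta of resident macrophages, was 3.94, 3.28, 6.83 and 8.89 CPM in female controls and 9.19, 9.57, 39.7 and 32.3 CPM in female sedentary pain. The groups did not overlap, but replicates 1 and 2 lay just above the highest control and replicates 3 and 4 far above it. The log2 fold change was 1.96 ± 0.48 (edgeR adjusted p = 0.0127). Timd4, the phosphatidylserine receptor TIM-4 through which long-lived resident macrophages bind dying cells, was 0.823, 1.05, 1.09 and 1.53 CPM in female controls and 1.62, 1.23, 9.27 and 4.80 CPM in female sedentary pain. Replicate 2 lay within the range of the controls. Its log2 fold change of 1.89 ± 0.53 passed (edgeR adjusted p = 0.0215). The macrophage sums of these libraries were also highest in replicates 3 and 4. Timd4 was lower in replicate 2 than in 1 and in replicate 4 than in 3, where the sums were higher, and so was Folr2 in replicate 4. The part of macrophage amount in these values was not tested. A setting without female sedentary pain replicates 3 and 4 was chosen after seeing the data. There Folr2 had a log2 fold change of 0.69 (edgeR adjusted p = 0.173) and Timd4 of 0.33 (edgeR adjusted p = 0.432). Over all 23 alternative settings the adjusted p ranged from 0.000249 to 0.924 for Folr2 and from 0.00211 to 0.916 for Timd4. Leaving out sedentary pain replicate 3 or 4 or control replicate 1 or 2 alone also ended the Timd4 call, with edgeR adjusted p-values of 0.0507, 0.0501, 0.056 and 0.0539 and log2 fold changes of 1.19, 1.85, 1.78 and 1.87. The 2 groups fitted alone gave 1.91 (edgeR adjusted p = 0.0555). In active females Folr2 was 7.45 to 11.1 CPM and Timd4 1.67 to 2.40 CPM, with log2 fold changes against control of 0.72 ± 0.47 and 0.85 ± 0.53. Neither passed, although no active library overlapped the controls for Timd4.

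In males Folr2 was 2.69 to 6.31 CPM in controls, 4.82 to 14.01 among sedentary pain libraries and 5.73 to 11.9 among active ones. Timd4 was 0.614 to 0.983 CPM in male controls, 0.525 to 3.46 for sedentary pain and 1.12 to 3.44 for active pain. The largest male value of Timd4 was below the 2 high female libraries, and the active pain group did not overlap the controls. None of the 4 male comparisons with control passed for these genes, with log2 fold changes of 0.90 to 1.52 and edgeR adjusted p-values of 0.442 to 0.574.

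Cd163, the haemoglobin-haptoglobin scavenger receptor, did not pass in either sex. In female sedentary pain it was 8.20, 6.01, 22.4 and 6.99 CPM, so that 1 library stood above the 3.78 to 11.3 CPM of the controls. The log2 fold change was 0.55 ± 0.43 (edgeR adjusted p = 0.319) and turned to -0.054 without replicates 3 and 4. Lyve1, a hyaluronan receptor of perivascular resident macrophages and of lymphatic vessels, was 5.25, 2.86, 12.4 and 2.01 CPM in female sedentary pain, against 4.42 to 6.02 CPM in controls. The pain libraries lay on both sides of the controls, and the log2 fold change was 0.13 ± 0.47 (edgeR adjusted p = 0.845). In active pain Lyve1 was 5.04 to 11.7 CPM in females and 7.53 to 14.002 CPM in males. All 4 active males lay above the male controls of 3.14 to 5.32 CPM, at a log2 fold change of 1.37 ± 0.42 that did not pass (edgeR adjusted p = 0.478). Of the 5 tested of 6 lymphatic endothelial markers, Pdpn rose in female sedentary pain (log2 fold change 3.47 ± 0.59, edgeR adjusted p = 0.00314). Prox1 and Flt4, which define lymphatic endothelium, had log2 fold changes of -0.64 ± 0.37 and -0.49 ± 0.26 that did not pass. The lymphatic sums ranged from 11.8 to 16.8 CPM in female controls and from 23.1 to 92.6 CPM in female sedentary pain. Reln and Mmrn1 had -0.66 and -1.36 and did not pass, so Pdpn was the 1 tested marker above 0, and Ccl21a was at 0 in all 24 libraries. Their part in the Lyve1 values was not tested.

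The secreted products of alternative activation did not move as 1 group. Chil3 encodes Ym1, a secreted chitinase-like lectin that alternatively activated macrophages make, and that monocytes and neutrophils also carry. It was 0.13, 0.168, 0.039 and 0.244 CPM in female controls and 3.78, 16.8, 1.98 and 1.98 CPM in female sedentary pain. The groups were far apart, with replicate 2 highest. The log2 fold change was 5.28 ± 1.14 (edgeR adjusted p = 0.00719), from 1 to 8 counts in a control library. Without sedentary pain replicate 2 it was 4.06 (edgeR adjusted p = 0.0142, with a range of 1.91e-07 to 0.125 over 23 alternatives). Active females had 0.343, 5.33, 7.62 and 1.003 CPM, all above controls, at 4.55 ± 1.13 (edgeR adjusted p = 0.565). In males it was 0.0314 to 0.136 CPM in controls. With sedentary pain it was 9.85, 0.368, 0.633 and 0.182 CPM, so that 1 library stood far above the others, and with active pain 1.76, 6.84, 0.342 and 0.119 CPM. The male log2 fold changes were 5.28 ± 1.70 and 4.98 ± 1.70 (edgeR adjusted p = 0.352 and 0.534). Without male sedentary pain replicate 1 the first was 2.47, and without male active pain replicate 2 the second was 3.36. With 1 surrogate variable they were 1.66 and 2.25. Across the 24 libraries the Pearson correlation of Chil3 with the mean of the 10 neutrophil markers was 0.93. With the monocyte, platelet and general macrophage lists it was 0.84, 0.83 and 0.71, and with the lymphatic and adipocyte lists 0.32 and -0.18. These are descriptions over libraries that share depth and handling, and the part of these cells in the Chil3 values was not tested. Chil4, the near-identical neighbour of Chil3, had 0 counts in all 24 libraries. Reads shared by the 2 copies could be lost or moved by the counting, so the level of Chil3 is uncertain to that extent. Retnlg, a Retnla relative that neutrophils make, had a log2 fold change of 4.93 ± 1.31 in female sedentary pain (edgeR adjusted p = 0.0175).

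Retnla, also called Fizz1, is a secreted protein of alternatively activated macrophages and of fat tissue. It was the only member whose fitted value was lower in female sedentary pain. It was 23.6, 13.2, 63.9 and 46.4 CPM in female controls, 15.9, 24.0, 10.99 and 3.04 CPM in sedentary pain, and 44.6, 14.1, 27.6 and 19.8 CPM in active pain. The groups overlapped. The log2 fold change of -1.48 ± 0.60 did not pass in the edgeR fit of the 12 female libraries (adjusted p = 0.0749). It passed in DESeq2 (adjusted p = 0.0319) and in an edgeR fit of all 24 samples (adjusted p = 0.0350). In males the 3 groups had means of 16.6 ± 7.31, 14.4 ± 3.58 and 17.6 ± 5.05 CPM (SD, n = 4) and log2 fold changes of -0.19 ± 0.33 and 0.08 ± 0.33. The 2 female controls with the most Retnla, replicates 3 and 4, also had summed CPM of 7 adipocyte markers of 5679 and 2749, against 135 to 738 in the other 22 libraries. Across the 24 libraries the Pearson correlation of Retnla with the adipocyte list was 0.76, a description over libraries that share depth and handling. Of the 7 adipocyte markers 6 fell in female sedentary pain, where 13.9% of all genes were lower. Adipocyte sums in female control replicates 1 and 2, at 438 and 280 CPM, lay within the 195 to 674 CPM of female sedentary pain. The part of adipocytes in the Retnla values was not tested.

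Cbr2 encodes a carbonyl reductase that is a marker gene of resident macrophages and is also made in fat and lung. It rose in female sedentary pain, from 20.4, 13.2, 20.4 and 17.97 CPM in controls to 30.8, 55.7, 51.2 and 63.7 CPM. The groups did not overlap, at a log2 fold change of 1.46 ± 0.26 (edgeR adjusted p = 0.00365). Active females had 43.0, 25.2, 54.6 and 33.8 CPM, also above all controls, at 1.12 ± 0.26 (edgeR adjusted p = 0.565, and 0.0188 in DESeq2). In males Cbr2 was 48.3 to 64.9 CPM in controls, 63.7 to 147.8 CPM with sedentary pain, which overlapped the controls, and 69.9 to 81.6 CPM with active pain, which did not. The male log2 fold changes of 0.61 ± 0.25 and 0.45 ± 0.25 did not pass (edgeR adjusted p = 0.497 and 0.634), and the first was 0.22 without sedentary pain replicate 1, the 147.8 CPM library. F13a1, the catalytic chain of clotting factor XIII, is made by monocytes, macrophages and platelets. It was 10.3, 9.92, 17.8 and 19.9 CPM in female controls and 28.6, 25.5, 58.7 and 29.1 CPM in female sedentary pain. Again the groups did not overlap, at 1.27 ± 0.33 (edgeR adjusted p = 0.0151). Without sedentary pain replicates 3 and 4 the F13a1 value was 0.89 (edgeR adjusted p = 0.0973, with a range of 0.00105 to 0.553 over 23 alternatives). Platelet sums, over 7 markers led by Pf4, were 3.91 to 10.3 CPM in female controls and 16.4 to 69.5 CPM in female sedentary pain, and monocyte sums 63.2 to 76.0 and 160.0 to 740.8 CPM. The platelet sum was mostly Pf4 (mean 29.5 CPM in female sedentary pain), while the platelet receptor genes Gp9 and Gp5 averaged 0.0227 and 0.0258 CPM there. The part of platelets and monocytes in the F13a1 values was not tested. Male F13a1 was 8.56 to 16.3 CPM in controls, 18.95 to 38.1 with sedentary pain and 17.1 to 46.5 with active pain, with no overlap with controls. The log2 fold changes of 1.16 ± 0.33 and 1.38 ± 0.33 did not pass in edgeR (adjusted p = 0.305 and 0.465) and passed in DESeq2 (adjusted p = 0.0422 and 0.0149). F13a1 overlaps 2 antisense genes and Folr2 an antisense gene and a pseudogene. Whether the counting used strand is not given in the sources used here, so these reads cannot be told apart.

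**Figure D2:**
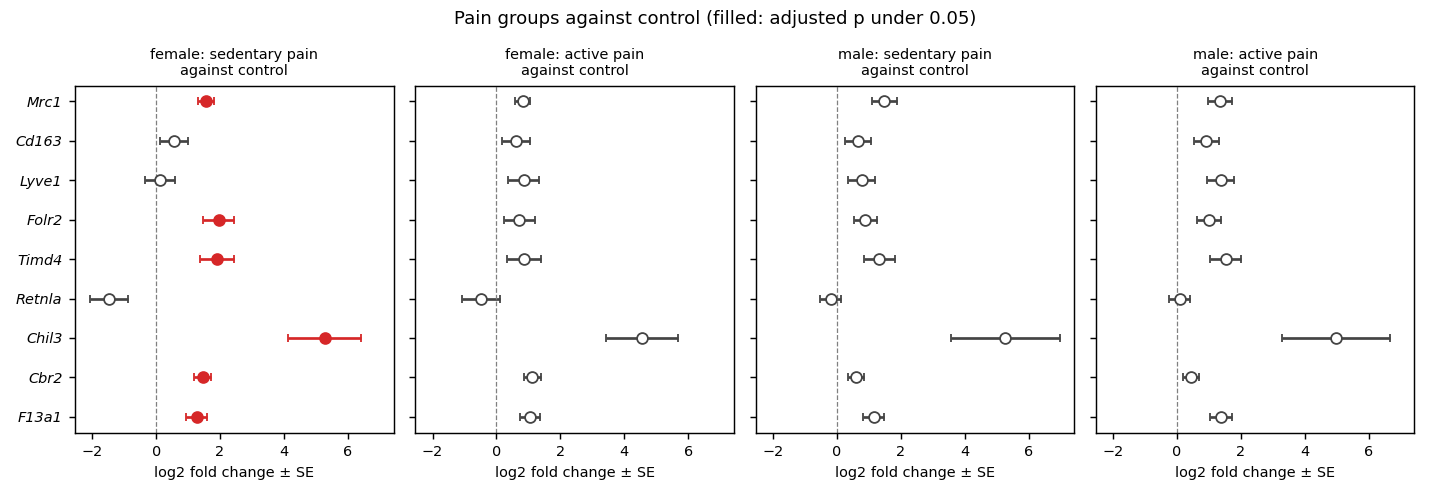
Log2 fold change of each gene with its standard error (bars) in the 4 comparisons of a pain group with the controls of the same sex; filled red points passed the adjusted threshold of 0.05. The 6 filled points all lie in female sedentary pain, and in the other comparisons most open points lie above 0.

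The count of 6 higher members was 5 or 6 under the other alternatives run, and below that in the 2 settings given next. DESeq2 and the edgeR fit of all 24 samples called 1 member more, Retnla, in the lower direction. With 1 surrogate variable (a factor estimated from the data) as a term, 0 of 9 members and 61 of all genes were called, and the log2 fold change was 0.88 for Mrc1, 0.65 for Cbr2, 0.24 for Folr2, 0.41 for Timd4 and 0.77 for F13a1, all smaller than in the fit without it. For Chil3 it was larger, at 5.91, and the call was lost as well (edgeR adjusted p = 0.125). Without female sedentary pain replicates 3 and 4, 3 of 9 members (Mrc1, Chil3 and Cbr2) and 1440 genes were called. Counts without overlap between groups were 5 higher of 9 in female sedentary pain (background 15.3% of genes higher), 4 of 9 for active females (3.6%), 3 of 9 for sedentary males (3.95%) and 5 of 9 for active males (6.34%). At an unadjusted p under 0.05 in edgeR, 4 members were higher in active females, 6 in sedentary males with pain and 7 in active males. Genes of all kinds passing that level and higher made up 3.78%, 7.46% and 5.26%. DESeq2 called 2 members in active females (Chil3 and Cbr2), 3 in sedentary males with pain (Mrc1, Chil3 and F13a1) and 2 in active males (Chil3 and F13a1), all higher. Of genes of all kinds it called 125 of 14511, 270 of 14404 and 127 of 14404 in these comparisons.

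Direct comparison of active with sedentary pain called 0 of 9 members in females, where 11.9% of all genes were called and 9.41% were lower, and 0 of 9 in males, where 0% were called. In females 2 members were lower at an unadjusted p under 0.05 in edgeR, as were 19.4% of genes. They were Folr2, at a log2 fold change of -1.24 ± 0.47 (edgeR adjusted p = 0.0972), and Mrc1, at -0.74 ± 0.24 (edgeR adjusted p = 0.0623). DESeq2 called both, with adjusted p-values of 0.0392 and 0.0243, among 3010 of 14511 genes that it called. Without female sedentary pain replicate 1 edgeR called 2 members and without female active pain replicate 3 it called 1, all lower. Leaving out 1 library called 0 to 4316 genes of all kinds. The direction of Folr2 was not stable, at 0.27 with 1 surrogate variable and 0.0205 without female sedentary pain replicates 3 and 4. Mrc1 was at -0.41 without those replicates. The replicate block called Mrc1 (-0.73), and a term for the split by library number called Mrc1 (-0.73) and Folr2 (-0.97). For Mrc1 only the female sedentary pain replicate 1 of 25.9 CPM fell below the highest active library of 28.4 CPM. In males the values of the 9 tested members were -0.30 to 0.58, and 0 members passed at an unadjusted p under 0.05 in edgeR (0.84% of genes did) or when adjusted in DESeq2.

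The sexes differed in 1 member before any pain. In controls, Cbr2 was 48.3, 64.9, 57.5 and 58.0 CPM in males and 20.4, 13.2, 20.4 and 17.97 CPM in females. The lowest male was far above the highest female. Male against female, the log2 difference was 1.67 ± 0.27 (3.17-fold, edgeR adjusted p = 0.000894), in a comparison that called 2.83% of 15103 genes. It passed under all 33 alternatives run, with values of 1.55 to 1.85. In the pain groups the sexes also did not overlap. The highest female was 63.67 CPM and the lowest male 63.72 CPM with sedentary pain, and these values were 54.6 and 69.9 CPM with active pain. The male mean was 3.17 times the female mean in controls, 1.72 times with sedentary pain and 1.98 times with active pain. The other 8 members did not pass between the control groups. Retnla was lower in males at an unadjusted p only (log2 difference -1.14 ± 0.51, edgeR adjusted p = 0.292).

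No member passed a test of whether its change differed between the sexes, and neither did any of 15103 genes (0% in each of the 3 tests) in edgeR. At an unadjusted p under 0.05 there were 1, 0 and 1 members for sedentary pain against control, active pain against control and active against sedentary pain, where 9.57%, 2.03% and 14.7% of genes were, and DESeq2 called 0 members in each. The value of Cbr2, female minus male change from control to sedentary pain, was 0.89 ± 0.37 (edgeR adjusted p = 0.475), with male sedentary pain at 147.8, 63.7, 69.6 and 64.5 CPM. Without male sedentary pain replicate 1 and male active pain replicate 2 it was the 1 member called, among 591 genes called. For Folr2 the female minus male value from sedentary to active pain was -1.38 ± 0.62 (edgeR adjusted p = 0.316). A pain effect on members in females only is therefore not shown: 6 passed in females and 0 in males, and the difference itself did not pass in edgeR.

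Members were then set against the general macrophage markers, as log2 CPM of the member minus the mean log2 CPM of the 14 markers in the same library. In female sedentary pain all 14 markers rose, with a median log2 fold change of 4.46, larger than that of 8 of the 9 members. The median over all genes was -0.022. The marker mean was 1.69 to 2.75 log2 CPM in female controls and 4.10 to 7.47 in female sedentary pain. An unchanged gene would therefore also be lower on this scale. The share of all genes that were was not computed, so lower values here are not shown to be particular to the members. For Mrc1 the relative value was 1.503, 1.56, 1.59 and 1.05 in female controls and 0.60, -0.14, -1.23 and -2.18 in sedentary pain. Every sedentary pain library was below every control, and replicates 3 and 4 were lowest. The difference was -2.16 (exact permutation p = 0.0286, two-sided, 4 against 4). Folr2, at -1.95, Timd4, at -2.30, F13a1, at -2.46, Cbr2, at -2.28, Cd163, at -3.25, Lyve1, at -3.93, and Retnla, at -5.27, gave the same p. It is the smallest that 70 arrangements can give, and adjusted over the 54 tests made it was 0.0812, so 0 of 9 members passed. Over the 28 settings run the difference ranged from -6.06 to -4.15 for Retnla, -4.61 to -3.03 for Lyve1 and -3.85 to -2.58 for Cd163. Chil3 differed by 0.57 (exact permutation p = 0.686), with a range of -0.36 to 1.43. It was -0.36 without female sedentary pain replicate 2 and -0.029 against the median in place of the mean of the markers, so its direction was not stable. Folr2, which rose 3.89-fold in CPM, was thus lower relative to the markers.

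In active females the mean relative value was above that of sedentary females for all 9 members, and for 5 of them, at the smallest exact p, the libraries did not overlap. For Mrc1, Folr2, Timd4 and Chil3 they overlapped. The marker mean itself was 4.10 to 7.47 log2 CPM in sedentary and 2.96 to 4.49 in active females. An unchanged gene would therefore tend to be higher on this scale as well, and the share of all genes that were was not computed. The difference was 2.54 for Cd163, 3.25 for Lyve1, 3.46 for Retnla, 1.91 for Cbr2 and 2.08 for F13a1, and 0 of 9 passed after adjustment. Without female sedentary pain replicate 4 these were 1.87, 2.36, 2.34, 1.51 and 1.49, and over the 28 settings each of the 9 differences stayed above 0. In males the mean was also higher in active than in sedentary pain for all 9 members, with 0 of 9 at the smallest exact p, but without male sedentary pain replicate 1 it was lower for 8 of 9 (Cd163 went from 0.37 to -0.34 and Lyve1 from 0.89 to -0.15). The remaining member, Chil3, was at -0.54 without male sedentary pain replicate 4, so no direction is shown for males. Against control, active females were lower for 8 of 9 members, again with 0 of 9 at the smallest exact p. In males, 8 of 9 relative values were below control after sedentary pain, and 8 of 9 after active pain. Without male sedentary pain replicate 1 the first count was 7 of 9, with Timd4 going from -0.90 to 0.072 and Lyve1 from -1.35 to -0.30. Folr2, Retnla and Cbr2 were at the smallest exact p in both, with differences of -1.08, -2.02 and -1.39 for sedentary males and -0.78, -1.64 and -1.34 for active males. Again 0 passed after adjustment. The marker mean was 1.15 to 2.13 log2 CPM in male controls, 2.36 to 5.05 with sedentary pain and 2.90 to 4.43 with active pain. The same limit holds for these comparisons with control in both sexes.

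**Figure D3:**
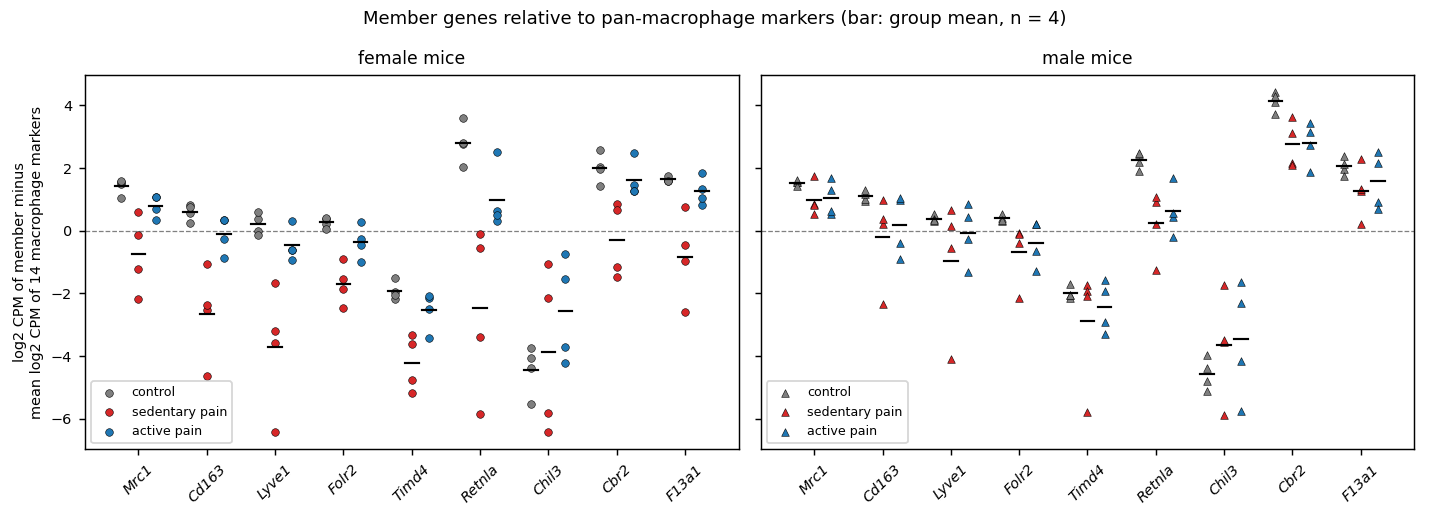
Log2 CPM of each gene minus the mean log2 CPM of 14 general macrophage markers in the same library, for control, sedentary pain and active pain libraries of each sex; bars are group means (n = 4). For Mrc1 the 4 female sedentary pain points (-2.18 to 0.60) lie below the 4 controls (1.05 to 1.59), and for Chil3 the groups overlap.

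The 9 genes did not follow each other alike across libraries. These are descriptions over 24 libraries in 6 groups. With the mean of the 14 macrophage markers the Pearson correlation of log2 CPM was 0.90 for Mrc1, 0.89 for Folr2, 0.72 for F13a1 and 0.71 for Chil3. It was 0.69 for Timd4, 0.36 for Cd163, 0.34 for Cbr2, -0.037 for Lyve1 and -0.36 for Retnla. Between members it was 0.87 between Folr2 and Timd4, 0.90 between Mrc1 and F13a1 and 0.76 between Cd163 and Lyve1, but 0.061 between Cd163 and Chil3 and -0.033 between Lyve1 and Chil3. With group means removed, Chil3 and Timd4 had -0.55. Among 11143 genes searched, those with the most similar pattern were Ccl6, Cd53 and Cd68 for Mrc1 (0.93 to 0.94), C1qc, C3 and C1qa for Folr2 (0.95 to 0.96), and Cd209g, Cd209f and Iigp1 for Timd4 (0.85 to 0.90). For Cd163 they were Cd209f, Man1a and Fcna (0.78 to 0.84), for Lyve1 Slco2b1, Npl and Actr6 (0.71 to 0.83), and for F13a1 Slc9a9, Snx2 and Dab2 (0.82 to 0.85). Among the 3 nearest to Chil3 were S100a9 (0.94) and Mt2 (0.92). Cbr2 was nearest to Psmd8, Odc1 and 1110046J04Rik (0.88 to 0.93), and Retnla to Slc5a6, Fgfrl1 and Igfals (0.79 to 0.83).

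Folr2 and Timd4 were high in the same female sedentary pain libraries as Nos2, inducible nitric oxide synthase, which is used as a marker of classical activation. Nos2 was 1.55, 0.992, 28.2 and 38.2 CPM in replicates 1 to 4, where Folr2 was 9.19, 9.57, 39.7 and 32.3 CPM. In the other 20 libraries Nos2 was 1.33 to 3.24 CPM. Replicates 3 and 4 also had T and B lymphocyte sums of 27.5 and 39.5 CPM against 0.336 to 2.15 CPM elsewhere. Ccl24, a chemokine of alternatively activated macrophages, was high in other libraries, at 24.6 CPM in female sedentary pain replicate 2, 11.7 in female active pain replicate 3, 38.1 in male sedentary pain replicate 1 and 8.60 in male active pain replicate 2. It was at most 3.59 CPM elsewhere. These 4 libraries had the most Chil3 and the highest neutrophil sums of their groups. Ccl24 is 1 gene of the list of 32 described below, and the list as a whole did not follow it in female sedentary pain. The mean log2 CPM of the list there was 3.58 and 3.62 in replicates 3 and 4, against 2.97 in replicate 2. In the other pain groups it was highest in the libraries with the most Ccl24, at 2.67 in active females, 3.02 in sedentary males and 2.44 in active males.

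**Figure D4:**
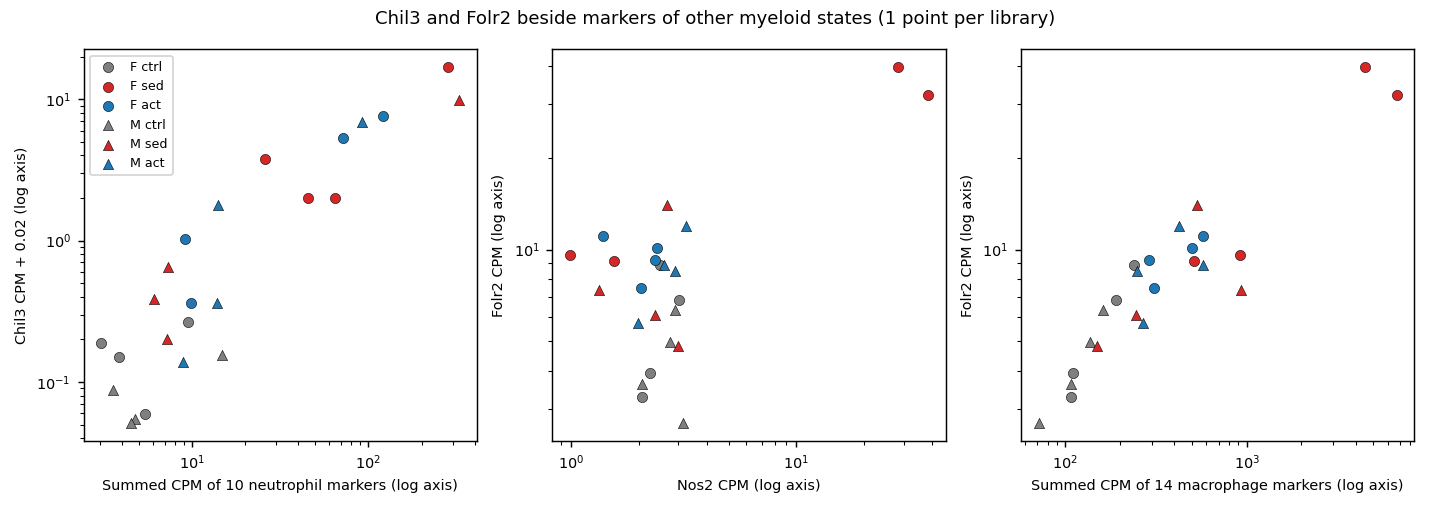
One point per library on log axes: Chil3 (CPM + 0.02) against the summed CPM of 10 neutrophil markers (left), and Folr2 CPM against Nos2 CPM (middle) and against the summed CPM of 14 macrophage markers (right). The 2 libraries with the most Nos2 (28.2 and 38.2 CPM) are those with the most Folr2, and the 4 libraries with the most Chil3 in their pain groups have neutrophil sums of 91.8 CPM or more.

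Other genes of the same states were read from a list of 32, of which 28 were tested in females. In female sedentary pain 17 rose and 1 fell (19.6% and 13.9% of all genes did), with a median log2 fold change of 1.73. Among those that rose were the scavenger receptors Marco (8.94 ± 1.75), Msr1 (5.77 ± 0.85), Siglec1 (3.54 ± 0.59) and Stab1 (1.87 ± 0.26), the lipid sensor Trem2 (4.80 ± 0.76), the chemokine Ccl8 (5.68 ± 0.78) and the resident-cell lectins Cd209f (1.37 ± 0.48) and Cd209g (2.04 ± 0.54). Gas6, a ligand that bridges dying cells to macrophages, fell by a log2 fold change of -0.33 ± 0.10 (edgeR adjusted p = 0.0335). Mgl2, Maf, Selenop and Igf1 had -0.48 ± 0.35, -0.56 ± 0.25, -0.12 ± 0.37 and -0.23 ± 0.33, and did not pass. In active against sedentary females 9 of the 28 fell (9.41% of all genes did) and Gas6 rose by 0.43. In males 0 of 28 passed in each comparison by edgeR, with 11 higher at an unadjusted p under 0.05 for sedentary pain (7.46% of genes) and 10 for active pain against control (5.26% of genes).

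The signalling genes upstream of this state were read from a list of 22 on interleukin-4, interleukin-13 and CSF1. In female sedentary pain 10 of 18 tested were higher and 1 lower, where 19.6% and 13.9% of all genes were. Summed CPM of the list was 317, 415, 782 and 1035 in replicates 1 to 4, against 246 to 302 in female controls. Its mean log2 CPM in replicate 1, at 1.71, lay within the 1.18 to 1.74 of controls. Il4ra, the receptor chain shared by both cytokines, was 6.79 to 16.4 CPM in female controls and 18.7 to 82.9 CPM in sedentary pain, at 2.24 ± 0.48 (edgeR adjusted p = 0.0069). Stat6 rose by 0.80 ± 0.22, Il13ra1 by 1.92 ± 0.42, Csf1, the macrophage growth factor, by 1.41 ± 0.37 and its receptor Csf1r, which is also 1 of the 14 general macrophage markers, by 3.48 ± 0.70. Pparg, a lipid-sensing receptor that adipocytes also express strongly, was the 1 gene that fell (-2.39 ± 0.73, edgeR adjusted p = 0.0286). Klf4 and Irf4, transcription factors of the interleukin-4 response, had -0.19 ± 0.21 and 0.18 ± 0.58 and did not pass. The cytokines themselves were near the limit of detection, with at most 5 counts of Il4 in any library and 1 count of Il13 in all 24, so differences in them were not detectable at this depth. In active against sedentary females Il4ra fell by 1.67, Stat6 by 0.83 and Csf1r by 2.66 on the log2 scale, and 6 of the 18 fell in all (9.41% of all genes did). All 18 tested genes of the list were without a call in males in edgeR, with 6 higher at an unadjusted p under 0.05 for sedentary pain (7.46% of genes) and 2 for active pain against control (5.26% of genes).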

How the data were processed

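Total RNA (0.5 µg) of the muscle was made into stranded libraries and read as 100-base pairs, per the labels' protocols. The authors deposited whole-number counts of reads per gene and library, with no normalization. The submitters' processing notes name HISAT2 2.1.0, Salmon 0.9.1, featureCounts, DESeq2 1.24.0 and mm10/GRCm38.p6, without their order. The annotation version and strand setting are not given in the sources used here.

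Counts were fitted with edgeR 4.0.16 (R 4.3.3): TMM scaling, filterByExpr with a minimum count of 10, and robust quasi-likelihood F tests, on 12 libraries of each sex and jointly on 24 for differences between the sexes. Benjamini-Hochberg adjustment covered all genes tested, with a threshold of 0.05. CPM used TMM factors over 24 libraries. Relative values used log2 CPM with a prior count of 2 and an exact permutation test over 70 arrangements. No library pair was identical, and the fits were tested on simulated data. Alternatives were DESeq2 1.42.0, another or no filter, a replicate block, a split by library number, 1 surrogate variable (sva 3.50.0), the 2 groups alone, and leaving out libraries. The labels do not say that replicate numbers mark a shared origin, and the deviations of same-numbered libraries correlated over 0.1 in 6 of 12 female and 3 of 12 male pairs (means 0.103 and 0.00654), not in every pair, so no block entered the reported fits. Members were described with up to 3 genes of most similar log2 CPM over 24 libraries for each. A gene of the chosen set and a neighbour are not reported here, and counts and adjusted permutation tests cover the other 9 genes. Members and lists were chosen with earlier results of these data known.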

Additional observations from a re-analysis of the deposited data

Results flagged for a closer look

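In 5 of 54 combinations of gene and group, the highest of 4 libraries lay further from the rest than Dixon's 95% critical value for a group of that size allows. Chance flags about 1 in 20 such groups. Chil3, the chitinase-like protein, was set apart at 16.8 CPM in female sedentary pain replicate 2 (next 3.78) and 9.85 CPM in male sedentary pain replicate 1 (next 0.633). Cbr2 was 147.8 CPM in that male library (next 69.6). Female sedentary pain replicate 3 was set apart for Cd163, at 22.4 CPM (next 8.20), and for F13a1, at 58.7 CPM (next 29.1).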

How the results depend on the processing

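Of the values of the 9 genes under alternative settings, 157 kept and 14 lost a call and 0 reversed among called results. Among uncalled ones 1492 stayed, 18 became calls and 47 reversed. For the sex differences in change only Folr2 and Cbr2, the members named there, are in these totals. The relative values cannot show stability, since their smallest exact p is 0.0286 before adjustment over 54 tests. Those that changed sign under a setting are given with them. The cause of each change was not tested, except that leaving out libraries or groups also leaves fewer samples. Low counts limit Chil3 in controls, and the 2 high libraries in a group of 4 limit Folr2 and Timd4.

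In female sedentary pain against control, 1 surrogate variable left 0 members and 61 genes called, the 2 groups alone 2847 genes, and the fit without replicates 3 and 4 left 3 members and 1440 genes. Leaving out 1 library gave 5 to 6 members and 2486 to 6674 genes. In female active pain against control, 1 surrogate variable called 5 genes, and DESeq2 2 members and 125 genes. In active against sedentary females, no filter called 174 genes, the library-number split 2 members and 2745 genes, DESeq2 2 members and 3010 genes, and 0 genes were called with 1 surrogate variable, with the 2 groups alone and without sedentary replicates 3 and 4. Leaving out 1 library gave 0 to 2 members and 0 to 4316 genes. In male sedentary pain, 1 surrogate variable called 6 genes, DESeq2 3 members and 270 genes, and the fit without male sedentary pain replicate 1 and male active pain replicate 2, also chosen after seeing the data, called 2 genes. For active males those numbers were 6 genes, 2 members and 127 genes, and 8 genes. For the sex difference in sedentary pain DESeq2 called 15 genes, and the fit without the 2 male libraries 1 member and 591 genes. DESeq2 called 3 genes for the sex difference in active pain and 133 for active against sedentary pain, and leaving out 1 library gave 0 to 18, 0 to 1 and 0 to 2174 genes for the 3 sex differences. Between controls, 1 surrogate variable called 988 genes, DESeq2 720, the fit without the 2 male libraries 775, and leaving out 1 library 198 to 622.

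The replicate block, whose numbers were not taken to pair the libraries, called 1 member in active against sedentary females, put Lyve1 at -0.088 in female sedentary pain, and put Cd163 at 0.027 between controls.

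These log2 values reversed. In female sedentary pain, Cd163 was -0.030 with 1 surrogate variable and -0.054 without replicates 3 and 4, and Lyve1 -0.33 without them. Leaving out libraries gave -0.054 to 0.83 for Cd163 and -0.59 to 0.43 for Lyve1. In active against sedentary females, 1 surrogate variable gave 0.27 for Folr2, 0.25 for Timd4, 0.31 for Cbr2 and 0.21 for F13a1, and the fit without replicates 3 and 4 gave 0.0205, 0.52 and 0.17 for Folr2, Timd4 and F13a1. Leaving out libraries there gave -0.16 to 0.67 for Cd163, -1.48 to 0.48 for Chil3, -0.40 to 0.17 for F13a1, and lowest values of -1.54 for Folr2 and -1.36 for Timd4. In males, Retnla ranged from -0.40 to 0.063 in sedentary pain and from -0.12 to 0.34 in active pain. In active against sedentary males the ranges were -0.34 to 0.31 for Mrc1, -0.044 to 0.65 for Cd163, -0.077 to 0.52 for Folr2, -0.13 to 0.67 for Timd4, -1.91 to 2.51 for Chil3 and -0.28 to 0.22 for Cbr2. Without the 2 male libraries Mrc1 was 0.12, Timd4 -0.10, Chil3 0.90 and Cbr2 0.23, and Chil3 was 0.59 with 1 surrogate variable. Between controls, Cd163 was 0.056 with the library-number split and -0.25 to 0.27 without 1 library, and F13a1 -0.23 to 0.12.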
